A study of Homo sapiens with 15 samples.

Results

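The 47 ribosome biogenesis genes described here are a named list of nucleolar genes for pre-rRNA processing, small nucleolar ribonucleoproteins (snoRNPs) and ribosome assembly. The list names genes by function and its rule uses no measured value, but it was chosen with earlier results of these data known. All 47 were found in the NCI-N87 table, which lists 18473 genes, and all 47 in the SNU-484 table, which lists 18346. Their messenger RNA was measured by poly(A)-selected, stranded RNA sequencing, so the values concern the mRNAs of these factors, and pre-rRNA and mature rRNA were not measured. The samples were 2 gastric cancer cell lines treated in culture for 72 h. NCI-N87 cells, an ERBB2-amplified line, received T-DXd at 1 µg/ml, trastuzumab at 1 µg/ml, or vehicle. SNU-484 cells, which the study describes as low in HER2 and, in a supplementary figure title, as moderate, received T-DXd at 1 µg/ml or vehicle. Each of the 5 groups had 3 replicates that the labels call biological, each line is a single wild-type line, and no other allele or agent is named. T-DXd (trastuzumab deruxtecan) is the HER2 antibody trastuzumab joined to a topoisomerase I inhibitor, and trastuzumab is the antibody alone. The SNU-484 controls are labelled vehicle, while their column names carry the letters iso, and whether both lines had the same control treatment is not given in the sources used here.

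Ribosomes are built in the nucleolus. RNA polymerase I transcribes a long precursor rRNA, box C/D and box H/ACA snoRNPs modify and help fold it, and the small subunit processome, pre-40S factors and pre-60S factors cut it and assemble it with ribosomal proteins. Genes of this machinery are widely known as targets of the transcription factor MYC, which binds DNA with its partner MAX at E-box sequences such as CACGTG, and proliferating cancer cells express them at high levels.

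Promoter stretches with the E-box are printed because it is the binding sequence of MYC, whose mRNA is described below with the genes of its network. RefSeq promoter windows of 300 bases (GRCh38.p14, 250 before and 50 after the transcription start) were matched for 40 of the 47 genes. CACGTG, which reads the same on both strands, was in 17 of these 40 windows (42.5%), against 2030 of 27305 windows of all genes (7.43%) and 1260 of 12499 windows of genes tested in NCI-N87 (10.1%). In 12 genes it began within 20 bases of the start used for the window. That start lay 15.1 kb inside the annotated gene for PES1 and 12.7 kb inside it for BYSL, so their windows are not at the outer end of the gene. The 30 bases around it are given for 10 of these 12 genes, written 5′ to 3′ on the gene's strand with CACGTG in capitals. They lie at chr19:39846356-39846385 (FBL, minus strand), chr3:51941892-51941921 (RRP9, minus), chr15:34343130-34343159 (NOP10, minus), chr16:69132621-69132650 (UTP4, plus), chr12:101280083-101280112 (UTP20, plus), chr4:2963374-2963403 (NOP14, minus), chr2:28894658-28894687 (WDR43, plus), chr11:34105602-34105631 (NAT10, plus), chr2:68157885-68157914 (PNO1, plus) and chr22:30591880-30591909 (PES1, minus). Promoter sequences of the other 7 genes were not analysed here.
FBL: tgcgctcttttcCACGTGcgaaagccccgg
RRP9: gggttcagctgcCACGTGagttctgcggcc
NOP10: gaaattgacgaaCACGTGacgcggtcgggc
UTP4: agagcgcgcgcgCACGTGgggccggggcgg
UTP20: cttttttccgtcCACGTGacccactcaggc
NOP14: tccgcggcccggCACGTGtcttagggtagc
WDR43: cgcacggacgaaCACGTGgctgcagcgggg
NAT10: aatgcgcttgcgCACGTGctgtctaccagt
PNO1: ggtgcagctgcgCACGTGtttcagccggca
PES1: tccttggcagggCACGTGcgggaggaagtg

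A second shared feature is the presence of small nucleolar RNA genes within the gene body. In the GENCODE annotation, 8 of the 47 genes held at least 1 such gene (17.0%), against 274 of 20020 protein-coding genes (1.37%). GNL3 held 6, NOP56 held 5, NOP58 held 4, NCL and WDR43 held 3 each, and DKC1, TSR1 and PPAN held 2 each. Small nucleolar RNAs lack poly(A) tails and were not measured here.

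Library totals were 46666533 to 66581448 counts. Levels below are CPM, counts scaled to a common library size with TMM factors. NCI-N87 libraries expressed epithelial markers (EPCAM at 482 to 522 and KRT8 at 3768 to 5315 CPM), whereas SNU-484 libraries had EPCAM at 1.61 to 2.39, CDH1 at 0.0429 to 0.198 and KRT8 at 0.477 to 1.40 CPM. SNU-484 libraries had PTPRC, a leukocyte gene, at 73.6 to 99.6 CPM with T-DXd and 117 to 129 with vehicle, and COL1A2, a mesenchymal gene, at 179 to 189 with T-DXd and 208 to 224 with vehicle. The labelled gastric adenocarcinoma identity of SNU-484 therefore goes against its defining epithelial markers, and the libraries are called SNU-484 after their label. In NCI-N87, 4 of 5 epithelial markers rose with T-DXd (median log2 fold change of the 5, 0.33) and 3 of 5 fell with trastuzumab (median -0.08). KRT8 was 5103 to 5315 CPM with T-DXd, 3768 to 3797 with trastuzumab and 4106 to 4180 with vehicle. CDH1 was 721 to 722 CPM with T-DXd, 473 to 480.0 with trastuzumab and 474 to 475 with vehicle, and EPCAM did not pass in either comparison with vehicle. COL1A1 in NCI-N87 was 7.29 to 9.67 CPM with T-DXd, 2.48 to 2.73 with trastuzumab and 1.99 to 2.29 with vehicle. Mitochondrially encoded genes took 7.67 to 9.01% of counts in SNU-484 with T-DXd and 6.41 to 6.84% with vehicle. The part of these markers in the results was not tested. Trastuzumab replicate 2 of NCI-N87 and T-DXd replicate 3 of SNU-484 stood apart from their group. In the SNU-484 library, deviations of the 47 genes from the other T-DXd replicates were related to exonic length (Spearman's rho = -0.767 across 47 genes and -0.647 across 13534 genes, as descriptions), with short transcripts high and long ones low. The other SNU-484 libraries were also each set against the other 2 of their group. Replicate 3 is part of the reference for T-DXd replicates 1 and 2, and deviations within a group cancel out. Values within a group are therefore not separate observations. Across the 47 genes rho was 0.691 and 0.561 in T-DXd replicates 1 and 2, and 0.611, -0.392 and -0.579 in vehicle replicates 1, 2 and 3.

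Together the 47 genes took 0.524 to 0.530% of all counts in NCI-N87 with T-DXd, 0.576 to 0.590% with trastuzumab and 0.605 to 0.607% with vehicle, and the groups did not overlap. In SNU-484 they took 0.413 to 0.416% with T-DXd and 0.505 to 0.517% with vehicle. CPM values are relative to the other mRNAs of a library, so fewer cells that express a gene and less of its RNA per cell cannot be told apart. Below, rose and fell are written only of genes for which edgeR's quasi-likelihood test gave a Benjamini-Hochberg adjusted p under 0.05 over all genes tested. In NCI-N87 with T-DXd, where 4 of 5 epithelial markers rose, 40 of the 47 genes fell and 4 rose relative to vehicle, whereas 29.5% of all genes tested fell and 29.1% rose. Their median log2 fold change was -0.21, a fall by 13.3%, against -0.01 over all genes tested. In SNU-484 with T-DXd, 34 of the 47 fell and none rose, against 9.65% of all genes that fell and 11.2% that rose, with a median log2 fold change of -0.30 (a fall by 18.9%) against 0.00 over all genes. At an unadjusted p under 0.05, 39 of the 47 were lower and 0 higher in SNU-484, and DESeq2 called 37 lower and 0 higher. Of all 16876 genes tested there, 6041 had an unadjusted p under 0.05 in either direction, and DESeq2 called 2051 lower and 2130 higher. With trastuzumab in NCI-N87, 14 of the 47 fell and none rose, against 6.09% of all genes that fell and 3.65% that rose, and the median log2 fold change was -0.08 against 0.01 over all genes. At an unadjusted p under 0.05, 31 were lower and 0 higher with trastuzumab, and DESeq2 called 22 lower and 0 higher. Of all 17394 genes tested, 4104 had an unadjusted p under 0.05 with trastuzumab in either direction, and DESeq2 called 1381 lower and 686 higher. Scaling by library totals or upper quartiles moved the trastuzumab calls over all genes, which were 635 higher and 1060 lower, to 836 higher and 529 lower or to 754 higher and 818 lower. In SNU-484, library totals moved them from 1897 higher and 1629 lower to 2251 higher and 1252 lower.

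**Figure D1:**
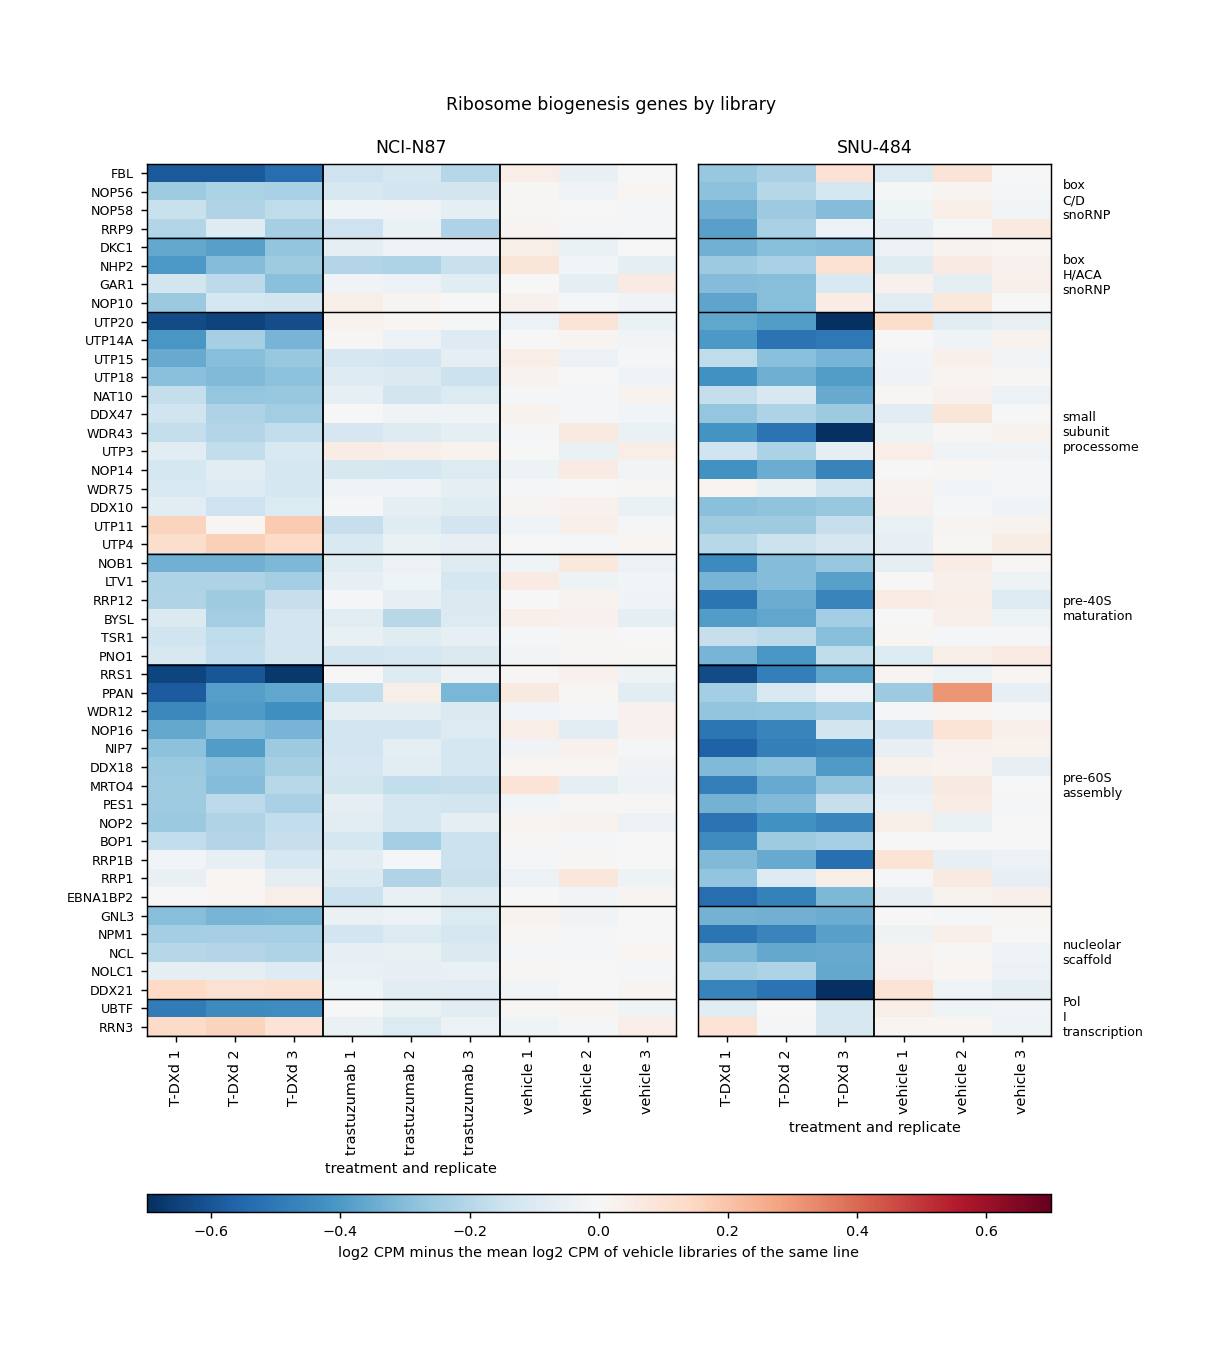
Heat map of the 47 ribosome biogenesis genes (rows, grouped by role) in 15 libraries (columns). Colour gives log2 CPM minus the mean log2 CPM of the vehicle libraries of the same line, and the scale stops at 0.7 in either direction. Most rows are blue in all T-DXd columns of both lines, while UTP4, UTP11, DDX21 and RRN3 are red in NCI-N87 T-DXd columns.

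Box C/D snoRNPs carry the 2′-O-methyltransferase fibrillarin (FBL) on guide snoRNAs, with NOP56 and NOP58 as core proteins and RRP9 as a protein of the U3 particle. All 4 genes fell in NCI-N87 with T-DXd and 2 of 4 fell in SNU-484. FBL (chr19:39834458-39846379) was 97.8, 97.8 and 102 CPM in NCI-N87 with T-DXd, 133, 135 and 128 with trastuzumab and 152, 142 and 148 with vehicle. The T-DXd libraries were the lowest and the vehicle libraries the highest, with no overlap among the groups. FBL fell by 32.7% with T-DXd (log2 fold change -0.57 ± 0.03 SE, adjusted p = 3.91e-11 by edgeR) and by 10.3% with trastuzumab (-0.16 ± 0.03, adjusted p = 0.00235). In SNU-484, FBL was 85.6, 88.1 and 110.5 CPM with T-DXd and 96.6, 109 and 103 with vehicle. The T-DXd library at 110.5 CPM is replicate 3, and the call depended on it: the log2 fold change was -0.12 (adjusted p = 0.405, edgeR) with it and -0.25 (adjusted p = 0.00408) without it.

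NOP56 (chr20:2652632-2658393) was 174, 177 and 176 CPM in NCI-N87 with T-DXd, 190.2, 188 and 188 with trastuzumab and 207, 203 and 208 with vehicle. In SNU-484 it was 76.8, 81.4 and 86.04 CPM with T-DXd and 92.7, 94.9 and 93.1 with vehicle. NOP56 fell by 14.9%, 8.34% and 13.0% in these comparisons (adjusted p = 2.13e-07, 0.00295 and 0.0374, edgeR). The NCI-N87 calls held in all 17 alternatives, but the SNU-484 call held in only 6 of 13 (adjusted p up to 0.129). NOP58 (chr2:202265763-202303661) was 122, 117 and 120.0 CPM in NCI-N87 with T-DXd, 133, 133 and 129 with trastuzumab and 137, 136 and 135 with vehicle, and its 83.0, 87.9 and 84.7 CPM in SNU-484 with T-DXd lay below 102, 108 and 103 with vehicle. It fell by 11.9% and 18.6% with T-DXd in NCI-N87 and SNU-484, and its log2 fold change with trastuzumab was -0.04 (adjusted p = 0.304). RRP9 (chr3:51933429-51941904) was 16.8, 18.2 and 16.5 CPM in NCI-N87 with T-DXd and 19.6, 19.3 and 19.3 with vehicle, a fall by 11.4%. In SNU-484 its log2 fold change was -0.21 (adjusted p = 0.117) with all libraries and -0.30 (adjusted p = 0.00298) without T-DXd replicate 3.

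Box H/ACA snoRNPs convert uridine to pseudouridine. DKC1 encodes the synthase, and GAR1, NHP2 and NOP10 encode its partners, all of which are also part of telomerase. All 4 fell in NCI-N87 with T-DXd, with a median fall by 16.4%, and only DKC1 fell in SNU-484. DKC1 (chrX:154762864-154777689) was 106, 105 and 113 CPM in NCI-N87 with T-DXd, 130.2, 134 and 134 with trastuzumab and 141, 132 and 137 with vehicle. In SNU-484 it was 103, 106 and 106 CPM with T-DXd and 127, 132 and 132 with vehicle. DKC1 thus fell by 20.9% and 19.5% with T-DXd in NCI-N87 and SNU-484 (adjusted p = 3.07e-08 and 0.00374, edgeR), and the difference between these changes was -0.00 ± 0.06 on the log2 scale.

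NHP2 (chr5:178149463-178153885) was 58.2, 62.4 and 64.7 CPM in NCI-N87 with T-DXd, 66.8, 66.2 and 69.0 with trastuzumab and 81.7, 75.8 and 73.5 with vehicle. It had the lowest log2 fold change of the 47 genes with trastuzumab (-0.19 ± 0.04, adjusted p = 0.00812). Without vehicle replicate 1, its highest library, the log2 fold change was -0.15 and the call was lost (adjusted p = 0.0504). NOP10 (chr15:34341719-34343136) was 49.0, 53.9 and 53.6 CPM in NCI-N87 with T-DXd and 60.03, 58.4 and 57.7 with vehicle, and GAR1 (chr4:109815510-109824737) was 24.8, 23.9 and 22.1 against 27.2, 26.0 and 28.2. Both fell, by 11.2% and 13.0%. In SNU-484 with T-DXd, replicate 3 was the highest for NHP2 (64.4, 65.6 and 82.7 CPM), NOP10 (61.9, 64.9 and 82.8) and GAR1 (16.8, 16.9 and 19.3), against vehicle values of 72.5, 79.9 and 78.4 for NHP2, 75.8, 84.2 and 79.8 for NOP10 and 21.2, 19.9 and 21.3 for GAR1. Their log2 fold changes of -0.12, -0.20 and -0.24 did not pass with it and were -0.24, -0.33 and -0.30 without it, with adjusted p of 0.00348, 0.000474 and 0.00252 (edgeR).

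The small subunit processome is the large particle that folds and cuts the part of the precursor that becomes small-subunit rRNA. Of its 13 genes in the list, 11 fell and 2 rose in NCI-N87 with T-DXd, and 9 fell in SNU-484. UTP20 (chr12:101280105-101386618), a large protein of this particle, was 43.3, 42.7 and 43.4 CPM in NCI-N87 with T-DXd, 68.0, 67.4 and 66.5 with trastuzumab and 64.9, 71.1 and 64.6 with vehicle. Trastuzumab libraries lay within the vehicle range, and the T-DXd libraries lay far below both. UTP20 fell by 35.4% with T-DXd (log2 fold change -0.63 ± 0.04, adjusted p = 2.34e-10, edgeR). In SNU-484 it was 41.3, 40.4 and 29.4 CPM with T-DXd and 57.7, 50.4 and 51.2 with vehicle, a fall by 30.2% that includes the low replicate 3. Without that library the log2 fold change was -0.38 in place of -0.52, and UTP20 fell in either case.

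UTP4 (chr16:69132649-69169021) and UTP15 belong to the subcomplex that first binds the nascent precursor, and they moved apart in NCI-N87. UTP4 was 87.6, 90.4 and 88.6 CPM with T-DXd, 74.7, 77.9 and 77.3 with trastuzumab and 80.8, 79.7 and 81.2 with vehicle, and it rose with T-DXd by 10.3% (adjusted p = 0.000159, edgeR), the highest log2 fold change of the 47. UTP15 (chr5:73565741-73583380) was 24.1, 25.1 and 25.6 CPM with T-DXd, 28.4, 28.0 and 29.4 with trastuzumab and 31.8, 29.9 and 30.7 with vehicle, and fell by 19.1% (adjusted p = 1.54e-05). In SNU-484, UTP4 was 62.9, 64.7 and 66.3 CPM with T-DXd against 69.0, 72.2 and 74.4 with vehicle (log2 fold change -0.15, adjusted p = 0.0737), and UTP15 was 31.2, 28.9 and 28.2 against 34.9, 36.2 and 34.96, a fall by 16.7%. UTP11, another processome protein, was the other gene that rose in NCI-N87, with 54.9, 49.7 and 55.9 CPM with T-DXd against 48.2, 50.4 and 48.9 with vehicle. One T-DXd library of UTP11 lay inside the vehicle range. UTP11 rose by 8.78% (adjusted p = 0.0209), and the call was lost without T-DXd replicate 1 or 3 or vehicle replicate 1 or 3 (adjusted p of 0.0572 to 0.112).

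WDR43 (chr2:28894667-28948219), of the same subcomplex as UTP4, was 86.5, 84.4 and 86.1 CPM in NCI-N87 with T-DXd, 89.7, 91.1 and 92.6 with trastuzumab and 96.2, 101 and 94.2 with vehicle, a fall by 11.8% with T-DXd. WDR43 in SNU-484 was 46.2, 43.1 and 35.01 CPM with T-DXd and 60.2, 62.1 and 62.7 with vehicle, a fall by 32.8% (adjusted p = 0.00442, edgeR). NOP14 (chr4:2937936-2963406), another component of the particle, was 94.8, 97.8 and 94.6 CPM in NCI-N87 with T-DXd, 95.5, 95.0 and 96.2 with trastuzumab and 100.4, 107 and 102 with vehicle. It fell by 7.12% with T-DXd and fell by 7.22% with trastuzumab. In SNU-484 NOP14 was 29.5, 31.1 and 28.7 CPM with T-DXd and 39.7, 39.96 and 39.3 with vehicle, a fall by 24.9%. The antisense gene NOP14-AS1 had 7.48% as many counts as NOP14 in NCI-N87 and 27.7% as many in SNU-484, and because the strand setting of the counting is not given, reads of the pair may not be told apart. NAT10 (chr11:34105629-34146908), an RNA acetyltransferase, was 76.0, 70.5 and 70.8 CPM in NCI-N87 with T-DXd and 84.4, 84.6 and 86.6 with vehicle, a fall by 14.98%, and its log2 fold change in SNU-484 was -0.21 (adjusted p = 0.0661). The other processome genes ranged in log2 fold change with T-DXd from -0.32 (UTP14A) to -0.10 (DDX10) in NCI-N87, apart from UTP11, and from -0.47 (UTP14A) to -0.06 (WDR75) in SNU-484. WDR75 there was 164, 156 and 147 CPM with T-DXd and 165, 160 and 161 with vehicle, so the groups overlapped. The NCI-N87 fall of DDX10 kept its call in 12 of 17 alternatives.

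Late small-subunit precursors are finished by pre-40S factors. All 6 in the list (NOB1, PNO1, BYSL, LTV1, TSR1 and RRP12) fell with T-DXd in both lines, by 9.05 to 20.3% in NCI-N87 and by 13.8 to 26.3% in SNU-484. Not all of these calls were stable, since in SNU-484 TSR1 kept its call in 8 of 13 alternatives (adjusted p up to 0.0988) and PNO1 in 10 of 13 (up to 0.0861), and in NCI-N87 BYSL kept its call in 16 of 17 (up to 0.0551). NOB1 (chr16:69741871-69754926), the endonuclease that makes the end of small-subunit rRNA, was 60.8, 60.7 and 61.6 CPM in NCI-N87 with T-DXd, 72.2, 74.5 and 71.8 with trastuzumab and 74.9, 80.5 and 74.5 with vehicle. NOB1 in SNU-484 was 27.1, 29.9 and 30.8 CPM with T-DXd and 35.5, 38.4 and 37.2 with vehicle. NOB1 fell by 20.3% and 20.9% in NCI-N87 and SNU-484 (adjusted p = 1.62e-07 and 0.00865, edgeR). PNO1, its RNA-binding partner (chr2:68157888-68176238), was 48.4, 46.5 and 47.8 CPM in NCI-N87 with T-DXd, 47.7, 48.1 and 48.7 with trastuzumab and 51.7, 52.6 and 52.7 with vehicle, so both drugs lay below vehicle and did not separate from each other (T-DXd minus trastuzumab -0.02 ± 0.03 on the log2 scale). BYSL, a small-subunit assembly factor (chr6:41908759-41933046), was 35.7, 32.4 and 34.9 CPM with T-DXd and 39.3, 39.1 and 36.6 with vehicle in NCI-N87, a fall by 10.4%. In SNU-484, PNO1 was 43.6, 41.4 and 48.5 CPM with T-DXd against 51.2, 56.3 and 56.9 with vehicle, and BYSL was 36.1, 36.7 and 39.9 against 47.4, 48.4 and 46.1.

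Large-subunit assembly is represented by 13 pre-60S genes, of which 10 fell in NCI-N87 with T-DXd and 11 in SNU-484. RRS1 (chr8:66429014-66430733), a single-exon gene for a large-subunit assembly factor, had the lowest log2 fold change of the 47 in NCI-N87 with T-DXd. It was 15.6, 16.1 and 15.3 CPM with T-DXd, 24.3, 22.9 and 23.8 with trastuzumab and 24.5, 24.9 and 23.8 with vehicle. The T-DXd libraries stood well below the other 6, which overlapped. RRS1 fell by 35.8% with T-DXd (log2 fold change -0.64 ± 0.05, adjusted p = 8.4e-09, edgeR), and in SNU-484 it was 13.5, 14.9 and 16.2 CPM with T-DXd and 21.0, 20.3 and 21.0 with vehicle, a fall by 28.7% (adjusted p = 0.00403).

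BOP1, PES1 and WDR12 form the PeBoW complex, which acts in large-subunit rRNA maturation. WDR12 (chr2:202874261-202911673) was 54.6, 56.6 and 55.4 CPM in NCI-N87 with T-DXd, 71.3, 71.3 and 69.4 with trastuzumab and 73.5, 74.2 and 76.0 with vehicle, and fell by 25.5% (adjusted p = 1.48e-09, edgeR). PES1 (chr22:30576625-30607013) was 122, 127 and 124 CPM with T-DXd, 138, 133 and 132 with trastuzumab and 143, 146 and 146 with vehicle. BOP1 (chr8:144262045-144291438) was 109, 106 and 109.8 CPM with T-DXd, 113, 104 and 111 with trastuzumab and 124, 122 and 123 with vehicle. PES1 and BOP1 fell by 14.2% and 11.6% with T-DXd and by 7.23% and 11.0% with trastuzumab, so the subunits of one complex did not share one size of change. In SNU-484, WDR12 was 41.4, 41.5 and 42.3 CPM with T-DXd against 49.5, 50.5 and 50.02 with vehicle, PES1 was 79.7, 81.0 and 89.8 against 97.5, 104 and 99.3, and BOP1 was 13.0, 14.9 and 15.1 against 17.7, 17.7 and 17.7. There the falls were 16.6%, 16.8% and 19.1%.

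NOP2 (chr12:6556871-6568291), an rRNA cytosine methyltransferase, was 81.9, 84.4 and 86.9 CPM in NCI-N87 with T-DXd, 92.6, 89.9 and 93.3 with trastuzumab and 99.1, 99.6 and 95.1 with vehicle, a fall by 13.8% with T-DXd. NOP2 in SNU-484 was 55.5, 59.0 and 57.7 CPM with T-DXd and 81.6, 76.7 and 79.5 with vehicle, a fall by 27.6% (adjusted p = 0.00102, edgeR). The pre-60S genes that neither fell nor rose in NCI-N87 with T-DXd were EBNA1BP2, RRP1 and RRP1B. EBNA1BP2 (chr1:43164174-43172570) was 146, 148 and 150.3 CPM with T-DXd, 132, 141 and 137 with trastuzumab and 146, 145 and 148 with vehicle, so the trastuzumab libraries were the lowest. In SNU-484, EBNA1BP2 was 78.4, 81.6 and 91.2 CPM with T-DXd and 109, 115 and 116 with vehicle, a fall by 26.1% (adjusted p = 0.00356). PPAN fell in NCI-N87 with T-DXd by 26.4%, but its reads are uncertain, since a read-through transcript with the neighbouring gene P2RY11 had 127% as many counts in NCI-N87 and 52.6% as many in SNU-484.

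Of the 5 nucleolar scaffold and remodelling proteins, 4 fell and DDX21 rose in NCI-N87 with T-DXd, and all 5 fell in SNU-484. NPM1 (nucleophosmin) and NCL (nucleolin) were the most abundant of the 47 mRNAs per length in all 5 groups, at 1465 ± 17.4 and 447 ± 8.31 TPM in NCI-N87 with T-DXd against 1656 ± 6.42 and 495 ± 6.75 TPM with vehicle (SD, n = 3 each). NPM1 (chr5:171387116-171410900) was 1003, 1007 and 1008 CPM in NCI-N87 with T-DXd, 1078, 1107 and 1088 with trastuzumab and 1193, 1171 and 1182 with vehicle. The groups were ordered without overlap, T-DXd lowest, and NPM1 fell by 14.9% with T-DXd and by 7.70% with trastuzumab (adjusted p = 1e-08 and 0.000942, edgeR). In SNU-484 it was 707, 732 and 775 CPM with T-DXd and 986, 1036 and 1007 with vehicle, a fall by 26.9% (adjusted p = 0.000968). NCL (chr2:231453531-231464484) was 837, 836 and 828 CPM in NCI-N87 with T-DXd, 924, 929 and 897 with trastuzumab and 956, 958 and 972 with vehicle, and 583, 567 and 568 CPM in SNU-484 with T-DXd against 738, 728 and 709 with vehicle. NCL fell by 13.3% and 21.0% with T-DXd in NCI-N87 and SNU-484, and by 4.72% with trastuzumab, a call kept in 5 of 17 alternatives.

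GNL3 (nucleostemin, chr3:52685920-52694497), a nucleolar GTPase, was 66.8, 65.4 and 65.8 CPM in NCI-N87 with T-DXd, 79.3, 79.6 and 76.9 with trastuzumab and 83.4, 80.6 and 82.1 with vehicle. Its fall by 19.5% with T-DXd matched in size the fall by 20.9% in SNU-484 (92.9, 92.7 and 91.9 CPM with T-DXd, 117, 116 and 118 with vehicle), with a difference between the lines of 0.05 ± 0.05 on the log2 scale. NOLC1, a chaperone of snoRNPs (chr10:102152389-102163870), was 278, 278 and 273 CPM in NCI-N87 with T-DXd and 293, 290.5 and 288 with vehicle, a fall by 4.83%, and 158, 160.2 and 145 CPM in SNU-484 with T-DXd and 189.5, 188 and 181 with vehicle, a fall by 17.0%. The NCI-N87 call of NOLC1 held in 15 of 17 alternatives, and by TPM NOLC1 was 154 ± 2.90 with T-DXd and 155 ± 1.55 with vehicle there (SD, n = 3 each). DDX21 (chr10:68956170-68985068), an RNA helicase of the nucleolus, was 303, 297 and 299 CPM in NCI-N87 with T-DXd, 269, 261 and 261 with trastuzumab and 272, 274 and 279 with vehicle. It rose by 8.88% there (adjusted p = 0.000391, edgeR). In SNU-484, DDX21 was 187, 181 and 148 CPM with T-DXd and 276, 253 and 246 with vehicle, a fall by 33.6% (adjusted p = 0.00341) and the lowest log2 fold change of the 47 in that line. Without the low T-DXd replicate 3, it was -0.49 in place of -0.59.

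The list holds 2 factors of RNA polymerase I transcription, and they moved in opposite directions in NCI-N87 with T-DXd. UBTF (chr17:44205040-44221304), which coats active rDNA, was 102, 105 and 106 CPM with T-DXd, 144, 139 and 136 with trastuzumab and 145, 146 and 141 with vehicle, and fell by 27.1% (adjusted p = 1.95e-10, edgeR). RRN3 (chr16:15060022-15094335), the factor that recruits the polymerase to the promoter, was 91.8, 93.3 and 89.7 CPM with T-DXd, 81.2, 78.5 and 81.4 with trastuzumab and 82.0, 83.1 and 86.5 with vehicle, and rose by 9.22% (adjusted p = 0.000868). In SNU-484, UBTF was 169, 178 and 165 CPM with T-DXd and 184, 175 and 176 with vehicle, and RRN3 was 43.5, 40.3 and 37.6 against 41.1, 41.0 and 39.9. The groups overlapped for both genes there, with log2 fold changes of -0.07 ± 0.05 and -0.01 ± 0.06. RRN3 is uncertain, because 3 transcribed pseudogenes together had 16.2% as many counts in NCI-N87 and 13.2% as many in SNU-484, a share larger than the rise of RRN3.

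**Figure D2:**
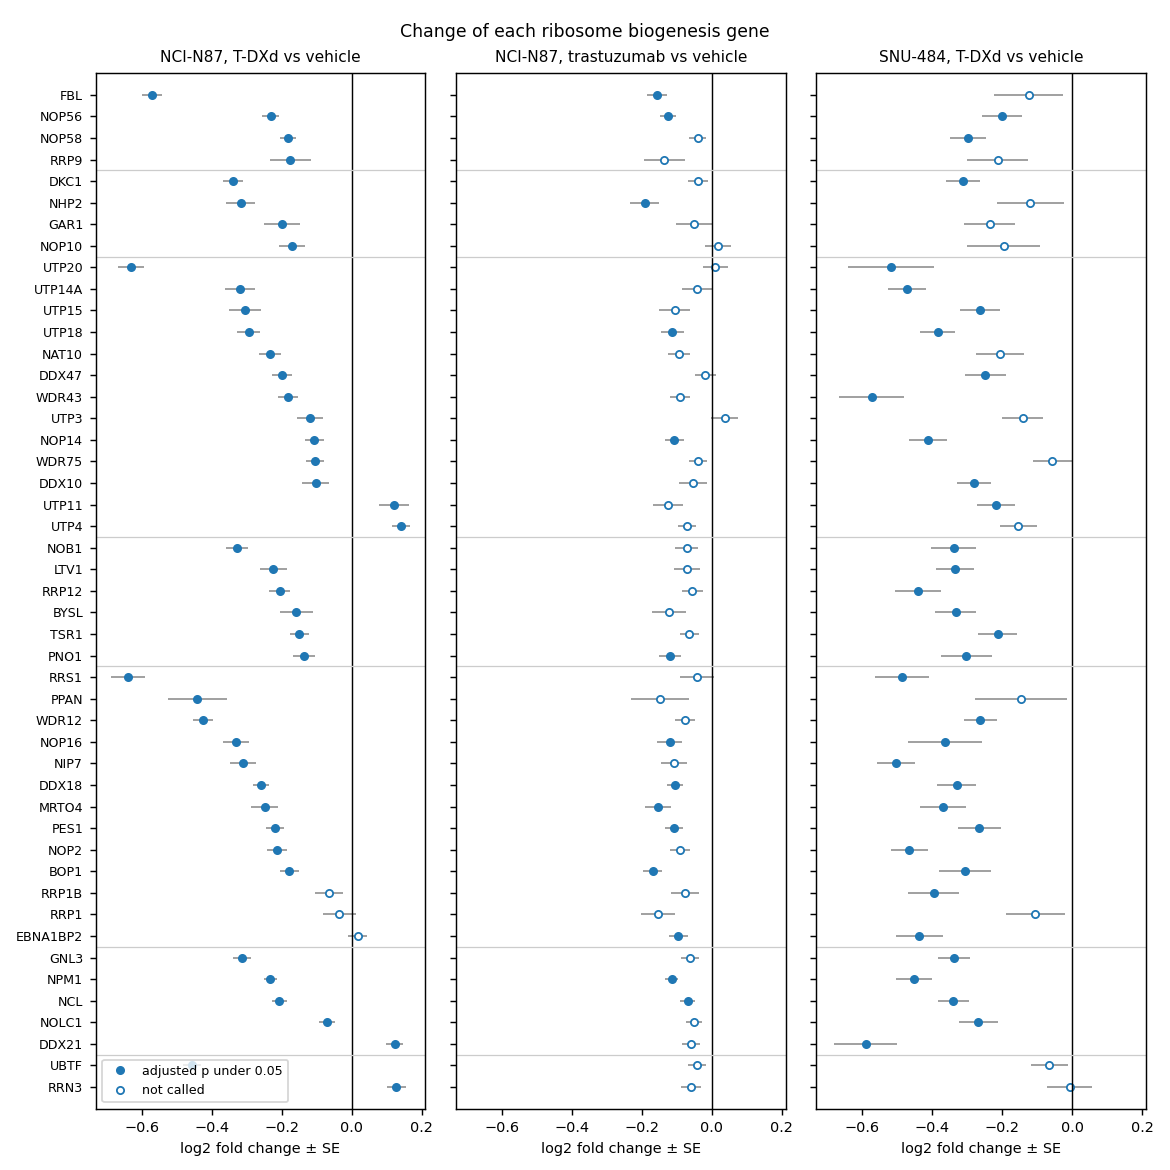
Log2 fold change (x axis) of each of the 47 genes (rows, grouped by role and ordered by the NCI-N87 T-DXd value) in 3 comparisons with vehicle. Bars are SE, filled points passed an adjusted p of 0.05 in edgeR and open points did not. Values run from -0.64 (RRS1) to 0.14 (UTP4) with T-DXd in NCI-N87, lie closer to 0 with trastuzumab, and are all below 0 with T-DXd in SNU-484.

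**Figure D3:**
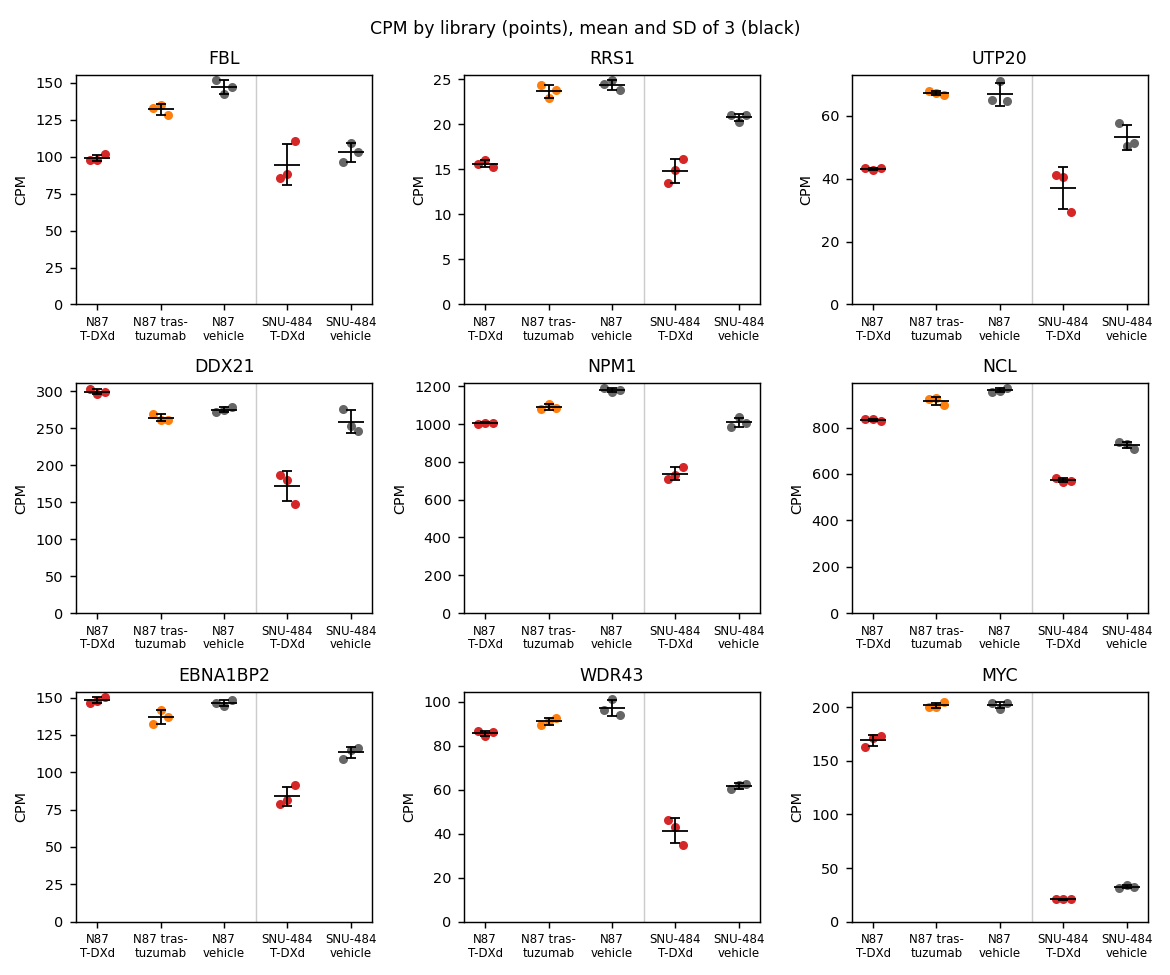
CPM (y axis, from 0) of 8 ribosome biogenesis genes and MYC in each library (points), with the mean and SD of 3 libraries in black, by line and treatment (x axis). RRS1 and UTP20 separate T-DXd from both other NCI-N87 groups, and DDX21 is higher with T-DXd in NCI-N87 and lower with T-DXd in SNU-484.

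The comparison of T-DXd with trastuzumab in NCI-N87 asks what differs between the conjugate and the antibody alone at the same dose and time, and shares its T-DXd and trastuzumab libraries with the comparisons with vehicle. With T-DXd, 33 of the 47 genes were lower than with trastuzumab and 6 were higher, while 29.4% of all genes were lower and 28.3% higher. The lowest log2 fold changes were those of UTP20 (-0.64 ± 0.04), RRS1 (-0.60 ± 0.05) and FBL (-0.41 ± 0.03), with UBTF also at -0.41. The higher genes were UTP11 (0.25), UTP4 (0.21), RRN3 (0.19), DDX21 (0.18), RRP1 (0.12) and EBNA1BP2 (0.11). The median was -0.14 against -0.02 over all genes tested. BOP1 (-0.01 ± 0.03), NOP14 (0.00 ± 0.03), PNO1, BYSL, NOLC1, RRP9, RRP1B and DDX10 did not pass the test.

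With trastuzumab alone the changes were small. Besides FBL, NOP56, NPM1, NCL, NHP2, NOP14, PNO1, BOP1 and PES1, the genes that fell were UTP18, NOP16, DDX18, MRTO4 and EBNA1BP2, and the 14 falls ranged from 4.72% (NCL) to 12.5% (NHP2). The highest log2 fold changes were those of UTP3 (0.04), NOP10 (0.02) and UTP20 (0.01), and none passed. UTP3 was 45.0, 44.4 and 44.2 CPM with trastuzumab and 43.4, 42.0 and 44.8 with vehicle, and NOP10 was 60.4, 59.6 and 58.5 with trastuzumab and 60.03, 58.4 and 57.7 with vehicle, so the groups overlapped for both. In 32 of the 47 genes all 3 trastuzumab libraries were below all 3 vehicle libraries, against 14.6% of all genes. The count of 14 depended on the processing. It was 22 with DESeq2, 6 with library totals in place of TMM factors, 7 without vehicle replicate 1, and 8 without any 1 of the trastuzumab replicates, including replicate 2, which stood apart. FBL, NOP56, NPM1 and BOP1 fell in all 17 alternatives.

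Whether T-DXd changed the genes alike in the lines was tested in 1 fit over the 12 T-DXd and vehicle libraries, as the T-DXd effect in NCI-N87 minus that in SNU-484. Among the 47 genes, 14 had a higher effect in NCI-N87 than in SNU-484 and 3 a lower one, against 22.3% and 19.3% of all genes tested, and the median difference was 0.09. Scaling by upper quartiles gave 11 and 3 of the 47 genes, without NCL, DDX10 and NIP7, and over all genes it moved the calls from 3301 higher and 2860 lower to 2698 higher and 3518 lower. Differences were largest for DDX21 (0.74 ± 0.10, adjusted p = 6.48e-05, edgeR), EBNA1BP2 (0.48 ± 0.07, adjusted p = 0.000143) and WDR43 (0.41 ± 0.10, adjusted p = 0.00601) among those that were higher. FBL (-0.42 ± 0.11, adjusted p = 0.0075), UBTF (-0.37 ± 0.06, adjusted p = 0.000199) and WDR12 (-0.14 ± 0.05, adjusted p = 0.0447) were lower. FBL and UBTF fell in NCI-N87 and did not pass in SNU-484, and WDR12 fell in both lines. The WDR12 call was lost with the replicate number as a block (adjusted p = 0.0719) and in all but 2 of the 12 fits that left out 1 library (adjusted p up to 0.107). PPAN had a difference of -0.27 ± 0.16, which did not pass, with 11.9, 13.6 and 13.8 CPM with T-DXd and 18.5, 17.96 and 16.8 with vehicle in NCI-N87, and 15.8, 17.4 and 18.1 with T-DXd and 15.7, 23.1 and 17.96 with vehicle in SNU-484. Without SNU-484 T-DXd replicate 3, the differences were 0.61 for DDX21 and -0.33 for FBL, both still past the threshold, and UTP20 also passed, at -0.26. Of the 47 genes, 30 fell with T-DXd in both lines, 10 fell only by the NCI-N87 test and 4 only by the SNU-484 test, of which UTP11 and DDX21 rose in NCI-N87.

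**Figure D4:**
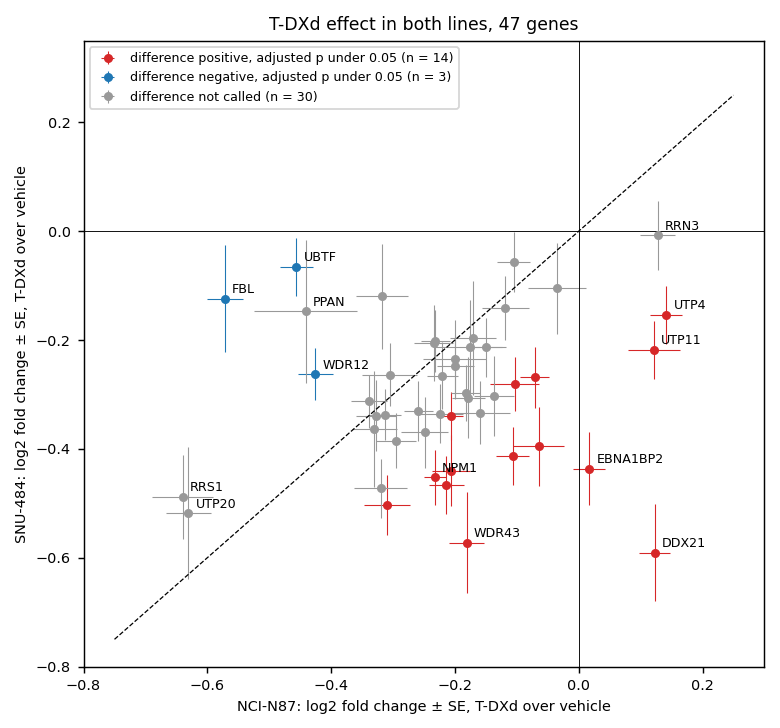
T-DXd effect on each of the 47 genes in NCI-N87 (x axis) and SNU-484 (y axis), as log2 fold change over vehicle with SE bars. The dashed line marks equal effects, and colours give the test of the difference between the lines (14 positive, 3 negative, 30 not called). DDX21 and EBNA1BP2 lie farthest below the dashed line and FBL farthest above it.

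The number of SNU-484 calls rested on single libraries. Without T-DXd replicate 3, 42 of the 47 genes fell in place of 34, and without vehicle replicate 2, 23 did. Calls over all genes moved the same way. In the main fit 1629 of 16876 genes tested fell, without T-DXd replicate 3 2676 of 17044, and without vehicle replicate 2 634 of 17010. The median log2 fold change without T-DXd replicate 3 was -0.32. Calls of 23 genes held in all 13 alternatives. Besides NOP56, TSR1 and PNO1, those that did not were NOP16 (7 of 13), UTP11 (8), BOP1 (8), UTP15 (9), PES1 (9), UTP20 (10), DDX47 (10) and NOLC1 (11), with adjusted p up to 0.147. The gain without T-DXd replicate 3 came from FBL, RRP9, NHP2, NOP10, GAR1, UTP3, UTP4 and NAT10. With these, all box C/D and box H/ACA genes fell in SNU-484 in that fit. Exonic lengths are 507, 780, 1015, 1125 and 1542 bases for NOP10, NHP2, GAR1, FBL and RRP9. They are 2020, 2188 and 3973 bases for UTP3, UTP4 and NAT10. The other T-DXd libraries were set against a mean that includes replicate 3, so their relations to length are not separate observations. The vehicle libraries also differed among themselves by exonic length. The part of length in these gains cannot be told apart, and it was not tested.

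The levels with vehicle also differed between the lines, in 31 of the 47 genes toward NCI-N87 and in 12 toward SNU-484, against 41.9% and 43.3% of all genes tested. All 3 NCI-N87 libraries were above all 3 SNU-484 libraries in 31 genes and below them in 13, against 43.3% and 44.8% of all genes. For these values both lines were scaled together. BOP1 was 134, 132 and 132 CPM in NCI-N87 and 17.8, 17.7 and 17.7 in SNU-484, a log2 difference of 2.90 ± 0.05. NOP14 (1.49), NOP56 (1.25), NOB1 (1.16), RRN3 (1.15) and NOP16 (1.14) followed. WDR75 was 74.2, 74.7 and 74.9 CPM in NCI-N87 and 166, 159 and 161 in SNU-484 (-1.12 ± 0.04). NIP7 (-0.82), at 64.7, 67.3 and 65.2 CPM in NCI-N87 and 112, 118 and 118 in SNU-484, and UTP18 (-0.67), at 58.6, 57.4 and 56.5 in NCI-N87 and 90.8, 92.6 and 91.8 in SNU-484, followed. The median over the 47 genes was 0.34 against -0.03 over all genes. Library totals in place of TMM factors moved the median of all genes to -0.14 and that of the 47 to 0.22. By TPM, which compares mRNAs per length, NOP10 (234 ± 3.62 TPM), EBNA1BP2 (217 ± 2.102), NOP56 (206 ± 1.77) and NHP2 (200 ± 9.74) came after NPM1, NCL and FBL in NCI-N87 with vehicle. In SNU-484 with vehicle the order after NPM1 and NCL was NOP10 (311 ± 13.2 TPM), FBL (191 ± 9.74), NHP2 (188 ± 6.87) and EBNA1BP2 (170 ± 2.57), where FBL and NHP2 did not differ beyond their SD.

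MYC, whose protein is known to activate many of these genes, fell with T-DXd in both lines. It was 163, 171 and 173 CPM in NCI-N87 with T-DXd, 201, 200.1 and 205 with trastuzumab and 205, 199 and 204 with vehicle. Trastuzumab overlapped vehicle (log2 fold change -0.00 ± 0.03), and MYC fell by 16.4% with T-DXd (adjusted p = 3.08e-07, edgeR). In SNU-484, MYC was 20.6, 21.3 and 20.8 CPM with T-DXd and 31.1, 34.5 and 32.5 with vehicle, a fall by 36.1% (adjusted p = 0.00042) and larger than in NCI-N87 (difference 0.41 ± 0.06, adjusted p = 0.000144). With vehicle and both lines scaled together, MYC was 221, 215 and 220 CPM in NCI-N87 and 31.3, 34.5 and 32.4 in SNU-484, a log2 difference of 2.74 ± 0.04. Whether MYC had a part in the changes of the 47 genes was not tested.

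Of the 13 genes in the MYC network list, 6 rose and 3 fell in NCI-N87 with T-DXd, and of the 12 tested in SNU-484, 5 rose and 1 fell. The shares that fell, 23.1% and 8.33%, were below the 29.5% and 9.65% of all genes, and the shares that rose, 46.2% and 41.7%, stand beside 29.1% and 11.2% of all genes. Those that rose in both lines include MXD1 and MXD3, whose proteins bind MAX and compete with MYC. MXD1 was 22.5, 22.7 and 22.6 CPM in NCI-N87 with T-DXd, 11.4, 12.1 and 11.3 with trastuzumab and 10.6, 11.8 and 9.47 with vehicle, a log2 fold change of 1.09 ± 0.07. In SNU-484 MXD1 was 13.2, 11.6 and 11.8 CPM with T-DXd and 10.0, 10.0 and 9.20 with vehicle (0.33 ± 0.09), a call kept in 8 of 13 alternatives. MXD3 had log2 fold changes of 0.46 with T-DXd and 0.24 with trastuzumab in NCI-N87, and 0.63 in SNU-484, all of which passed, although the call with trastuzumab held in 12 of 17 alternatives. MXD4, of the same family, rose by 7.29% in NCI-N87 and by 82.0% in SNU-484, where it was 59.8, 59.6 and 59.5 CPM with T-DXd and 30.4, 33.7 and 34.2 with vehicle. MXI1 fell in NCI-N87 (18.7, 17.2 and 17.8 CPM with T-DXd, 23.3, 24.6 and 25.3 with vehicle) and rose in SNU-484 (25.9, 24.5 and 23.9 with T-DXd, 19.8, 18.6 and 18.7 with vehicle). The remaining calls were MAX (0.10), MLXIP (0.28), MYCN (0.90, at 0.323 to 0.601 CPM with T-DXd and 0.218 to 0.269 with vehicle) and MYCL (-0.88) in NCI-N87 with T-DXd, and MNT (0.19) in SNU-484. Of these, MYCN kept its call in 10 of 17 alternatives, MAX in 13 of 17 and MNT in 9 of 13, and MXD4 kept its NCI-N87 call in 14 of 17.

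The genes were also divided by CACGTG in the promoter window. In NCI-N87 with T-DXd, 15 of the 17 with it fell and 1 rose, with a median log2 fold change of -0.21, and 19 of the 23 without it fell and 3 rose, with a median of -0.23. In SNU-484 the counts were 12 of 17 (median -0.34) and 15 of 23 (median -0.25). These are descriptions without a test. Of the 8 genes with small nucleolar RNA genes inside, all 8 fell in NCI-N87 with T-DXd and 7 in SNU-484, with medians of -0.22 and -0.31, and PPAN was the exception. The 39 genes without one had 32 and 27 falls and medians of -0.21 and -0.30. Gene span showed a weak relation to the T-DXd effect across the 47 genes (Spearman's rho = 0.215 in NCI-N87 and -0.151 in SNU-484, as descriptions over genes of the same libraries). The longest, DDX10 at 276 kb, had log2 fold changes of -0.10 and -0.28, and the single-exon genes RRS1 and UTP3 had -0.64 and -0.12 in NCI-N87.

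Beyond the 47, 128 other ribosome biogenesis factors in 5 lists were counted. With T-DXd, 64 of the 128 fell and 12 rose in NCI-N87, and 55 fell and 1 rose in SNU-484. With trastuzumab, 26 fell and 1 rose. Of all genes tested, 29.5% fell with T-DXd in NCI-N87, 9.65% in SNU-484 and 6.09% with trastuzumab. Among 40 further small subunit factors, 19 fell and 1 rose in NCI-N87 with T-DXd, led by IMP4 (-0.55) and WDR36 (-0.42), and UTP6 rose (0.17). In SNU-484, 20 fell, led by ESF1 (-0.52) and HEATR1 (-0.50). Among 47 further large subunit factors, 26 fell and 7 rose in NCI-N87, with NOL12 (-0.62) and NLE1 (-0.51) lowest and DDX24 (0.28) and TEX10 (0.22) highest. In SNU-484, 20 fell and NOP53 rose (0.23), while AFG2A (-1.08, listed as SPATA5) and CCDC86 (-0.57) were lowest.

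The 10 snoRNP assembly factors had 4 falls in NCI-N87 with T-DXd, where 29.5% of all genes fell, led by ZNHIT6 (-0.41) and NAF1 (-0.38), with RPAP3 rising by 0.11, and 3 falls in SNU-484, led by RPAP3 (-0.37) and RUVBL1 (-0.28). RPAP3 therefore had opposite signs in the lines, with its calls kept in 15 of 17 alternatives in NCI-N87 and 12 of 13 in SNU-484. Of 25 exosome and ribonuclease genes, 13 fell and 2 rose in NCI-N87 and 8 fell in SNU-484. EXOSC6 (-0.56) and RPP21 (-0.55) were lowest and RPP14 (0.61) and DIS3 (0.10) rose in NCI-N87, and EXOSC3 (-0.29) and C1D (-0.28) were lowest in SNU-484. Of 6 further RNA polymerase I factors, TAF1D (-0.43) and TAF1B (-0.41) fell (33.3%, against 29.5% of all genes) and TCOF1 (0.18) rose in NCI-N87, and 4 fell in SNU-484, with TAF1B at -0.39 and TCOF1 at -0.38.

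**Figure D5:**
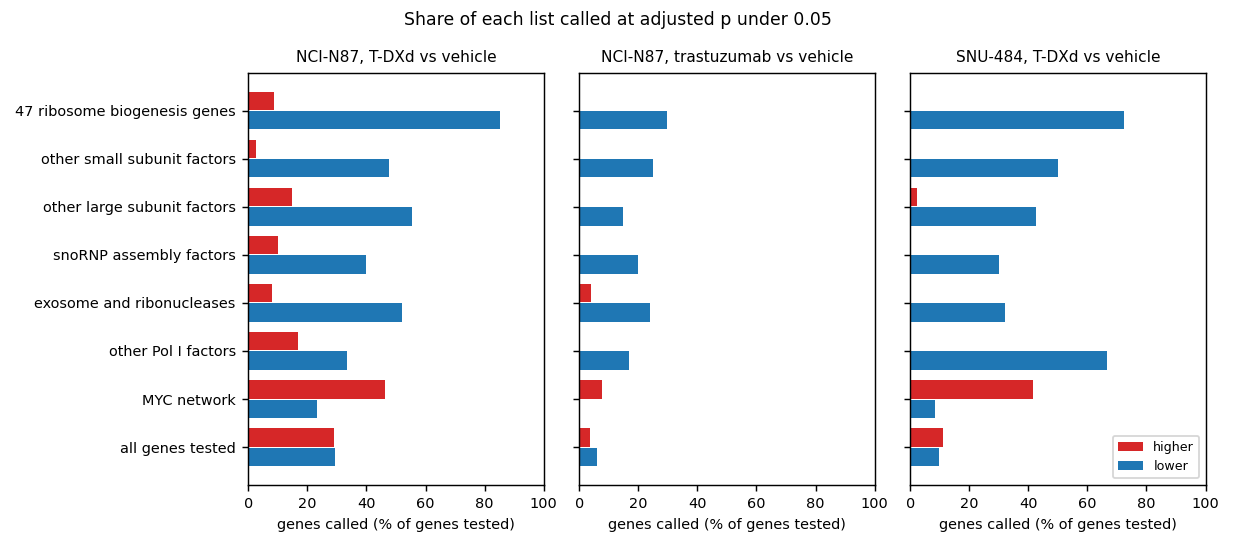
Share of genes called higher (red) or lower (blue) in each list (rows), as a percentage of genes tested (x axis), in 3 comparisons with vehicle. The 47 ribosome biogenesis genes had the largest blue share of the lists shown in each panel (85.1, 29.8 and 72.3%), against 29.5, 6.09 and 9.65% for all genes tested.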

How the data were processed

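RNA sequencing counts of 15 libraries (46666533 to 66581448 counts each) were analysed in 2 tables, 1 per cell line. The deposited read counts per gene were made by the authors with Trimmomatic 0.38, HISAT2 2.1.0 and StringTie 2.1.3b on GRCh38, per the submitters' processing notes, from TruSeq stranded mRNA libraries. The annotation release and the strand setting of the counting are not given in the sources used here. TPM values, deposited by the authors in the same tables, served to compare mRNAs per length within a table. For NPM1, NCL and NOLC1 only, TPM with T-DXd was also set beside TPM with vehicle in NCI-N87. The deposited tables also hold the authors' fold changes, p-values and group means, and 18 (NCI-N87) and 12 (SNU-484) further per-library columns, none of which were used.

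Counts were tested with edgeR 4.0.16 (R 4.3.3) by the quasi-likelihood test with TMM factors, after filterByExpr (minimum count 10, minimum total 15), and p-values were adjusted by Benjamini-Hochberg over all genes. NCI-N87 groups were fitted together, SNU-484 separately, and the lines were compared in 1 fit over 12 libraries with genes matched by gene ID. SE is the absolute log2 fold change divided by the square root of F. Replicates are labelled biological, but the sources used here do not say how cultures were separated, so p-values measure the spread between these samples. CPM used TMM-scaled library sizes of each table. Alternatives were DESeq2 1.42.0, other scaling factors, other filters, a replicate block, only the groups compared, and leaving out each library. They were run on named genes outside the 47 after the data were seen.

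The 47 genes and the other gene lists were chosen with earlier results of these data known. Per-library values were given for chosen genes of each role, for the 3 highest and 3 lowest log2 fold changes of each comparison, and for MYC, and called genes of its network were named. From each wider list up to 2 highest and 2 lowest called genes were named. The scripts were tested on simulated counts.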

Additional observations from a re-analysis of the deposited data

Results flagged for a closer look

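Differences in the T-DXd effect between the lines (NCI-N87 minus SNU-484, log2 scale) that passed the test of the difference itself (edgeR, joint fit) number 14 higher and 3 lower among the 47 ribosome biogenesis genes. These shares, 29.8% and 6.38%, stand beside 22.3% and 19.3% of all genes tested, a balance that turned with upper-quartile factors. The higher ones are DDX21 (0.74), EBNA1BP2 (0.48), WDR43 (0.41), UTP11 (0.36), RRP1B (0.35), NOP14 (0.33), UTP4 (0.32), NOP2 (0.27), RRP12 (0.26), NPM1 (0.24), NOLC1 (0.22), NIP7 (0.21), DDX10 (0.20) and NCL (0.16). The lower ones are FBL (-0.42), UBTF (-0.37) and WDR12 (-0.14). NOP2, NOP14, NCL, NPM1, NOLC1, WDR43, RRP12, DDX10 and NIP7 fell in both lines, while DDX21 and UTP11 rose in NCI-N87 and fell in SNU-484. Not all of these calls within a line were stable. In NCI-N87 those of DDX10, UTP11 and NOLC1 held in 12, 13 and 15 of 17 alternatives, and in SNU-484 those of UTP11 and NOLC1 held in 8 and 11 of 13. With upper-quartile factors NCL, DDX10 and NIP7 were not called, NCL was also lost with library totals (adjusted p = 0.0541), and DDX10 without NCI-N87 vehicle replicate 3 (adjusted p = 0.0501). In the MYC network list the differences were 0.78 for MXD1, 0.41 for MYC and 0.22 for MLX, and -0.81 for MXI1, -0.74 for MXD4, -0.72 for MYCL and -0.15 for MNT, whose call held in 7 of 19 alternatives. Levels with vehicle also differed between the lines for each of the ribosome biogenesis genes named here, and the part of this in the differences was not tested.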

How the results depend on the processing

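No called log2 fold change of the 47 genes, or of the named MYC network, epithelial marker and wider list genes, changed sign in any alternative run. Genes outside the 47 were put through the alternatives after the data were seen, and calls held in every alternative for 26 of 30 with T-DXd in NCI-N87, 10 of 14 with trastuzumab and 8 of 17 in SNU-484. Over all genes the balance of calls turned with library totals for trastuzumab (635 higher and 1060 lower, against 836 and 529) and with upper quartiles for the difference between the lines (3301 and 2860, against 2698 and 3518). With trastuzumab in NCI-N87, the 14 genes that fell became 22 with DESeq2 and 6 with library totals, and 7 to 17 when 1 library was left out, and the cause was not tested. With the replicate number as a block (replicate block), 4 of the 47 genes rose and 40 fell with T-DXd in NCI-N87, 0 and 12 with trastuzumab, 5 and 32 for T-DXd against trastuzumab, 0 and 37 in SNU-484, 14 and 2 for the difference between the lines, and 28 and 11 for NCI-N87 against SNU-484 with vehicle. Deviations of same-numbered samples correlated at -0.101 to 0.0835 over 9 pairs in NCI-N87, so the numbers were not taken to pair samples there. In SNU-484 the 3 pairs correlated at 0.53, -0.224 and 0.477, which leaves a shared structure by number undecided, and the main test there used no block. The replicate block moved the SNU-484 calls over all genes from 1897 higher and 1629 lower to 2422 higher and 2346 lower. In NCI-N87, 1 of 9 samples correlated best with its own number, and in SNU-484, 4 of 6 did. Leaving out 1 library gave 37 to 40 genes lower with T-DXd in NCI-N87 and 23 to 42 in SNU-484. Over all genes these fits called 4724 to 5135 lower in NCI-N87 and 634 to 2676 lower in SNU-484. Over all genes with trastuzumab, 371 to 420 rose and 622 to 934 fell when any 1 trastuzumab or vehicle library was left out. In every alternative run, 35 of the genes that fell and 3 that rose with T-DXd in NCI-N87 kept their calls, as did 4 with trastuzumab and 23 in SNU-484. With 3 libraries per group the precision is limited, and SEs cover the spread between these libraries only.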
